A study of Rattus norvegicus with 145 samples.

Results

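The cerebellum of aged wild-type rats was compared with the cortex of the same animals. Of the 145 RNA-seq libraries in the series, 20 belong to this comparison. They are the 10 libraries labelled wild-type (WT) cerebellum at 19 months and the 10 labelled WT cortex at 19 months. The animals were Long Evans rats, 5 males and 5 females, and each gave both tissues, matched here by the animal identifier in the sample descriptions. By their labels they carried no knock-in allele, and no treatment is named. The striatum of the same 10 animals was used only to place levels. Outside these, 3 sets of animals served for comparison. They were 10 heterozygous Q130 knock-in (KI) rats of 19 months, 5 of each sex, which are a model of Huntington's disease, 7 KI rats of 24 months, 4 males and 3 females, and 4 WT rats of 24 months, 2 of each sex. The labels of the 24-month animals carry another style of identifier, so age and whatever that numbering stands for cannot be told apart.

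The cerebellum develops from the hindbrain and the cortex from the forebrain. The cerebellum is packed with small granule neurons and holds the large Purkinje neurons, which carry the output of its cortex. The cortex is built mainly of layered excitatory pyramidal neurons with inhibitory interneurons among them, and the striatum of inhibitory projection neurons. Bulk RNA from a region is a mixture of these neurons with glia and vessels. A gene can therefore differ between regions through fewer cells of a type or through less RNA per cell, and the 2 cannot be told apart in these data. The deposited tables name genes by Ensembl identifier alone, and no identifier could be matched to a symbol. The region labels could therefore not be checked against marker genes. Genes are described by their levels, and 4 are given by identifier.

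Cerebellum libraries held 28710146 to 34066042 estimated counts and cortex libraries 30275870 to 47314669. Within a region, libraries were alike: the mean Spearman correlation of a library with the others of its region was 0.990 or more in 9 of 10 cerebella and 0.991 or more in 9 of 10 cortices. It was 0.982 in the cerebellum of animal G and 0.986 in the cortex of animal D. Between regions, the mean correlation of a library with those of the other region was 0.892 to 0.908. Animals are lettered A to J here, in order of their identifiers.

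Most genes differed between the regions, though usually by little. Of 15303 genes tested, 12026 passed an adjusted p of 0.05 in edgeR's quasi-likelihood test with the animal as a block, which is 78.6%. Of these, 6131 (40.1%) were higher in cerebellum and 5895 (38.5%) lower. This split depends on the scaling: limma called 9524 higher and 3979 lower on the deposited TPM values, and 5676 higher and 7135 lower once each library was centred on its median. The median absolute log2 difference over all tested genes was 0.46, and 8040 genes, 52.5%, differed by less than 0.5 on the log2 scale. A stricter test asked whether the difference was larger than 2-fold. It called 2740 genes, 17.9% of those tested, of which 1111 (7.26%) were higher in cerebellum and 1629 (10.6%) lower. Without animals D and G it called 2752, of which 1118 were higher.

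On this scale, in which libraries are set level by TMM, the genes lower in cerebellum were the more numerous and also moved further. The median log2 difference was -2.14 among the 1629 lower genes and 1.88 among the 1111 higher genes. Among genes called at an adjusted p of 0.05, 129 were at least 16-fold higher in cerebellum and 277 at least 16-fold lower. At 8-fold the counts were 235 higher and 467 lower, and at 4-fold 495 higher and 896 lower. The balance beyond 2-fold depends on the scaling too. The deposited TPM values are set only to the same total in each library. On log2(TPM + 0.1), the median of the 17333 genes left by the filter was 0.31 higher in cerebellum. It was 0.18 higher over 22144 genes without the filter, and 0.23 and 0.07 higher with a pseudocount of 1, with and without the filter. With the filter and a pseudocount of 0.1, limma called 1609 genes higher by more than 2-fold and 1178 lower, and 905 higher and 1746 lower once each library was centred on its median. On the TMM scale the lower genes were in excess at each of 5 levels of expression. Among genes with a mean level of 1 to 10 CPM, counts per 1000000 in a library, 9.18% were more than 2-fold higher in cerebellum and 14.4% lower. Among genes of 100 to 1000 CPM the shares were 6.04% higher and 9.06% lower. Large differences were less common among abundant genes: 8 of 73 genes above 1000 CPM were called beyond 2-fold, against 385 of 1378 genes under 1 CPM. The expression filter keeps a gene that is expressed in only 1 of the regions. Genes of low mean level were thus partly selected for a region difference, and the trend with level was not tested apart from this.

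**Figure D1:**
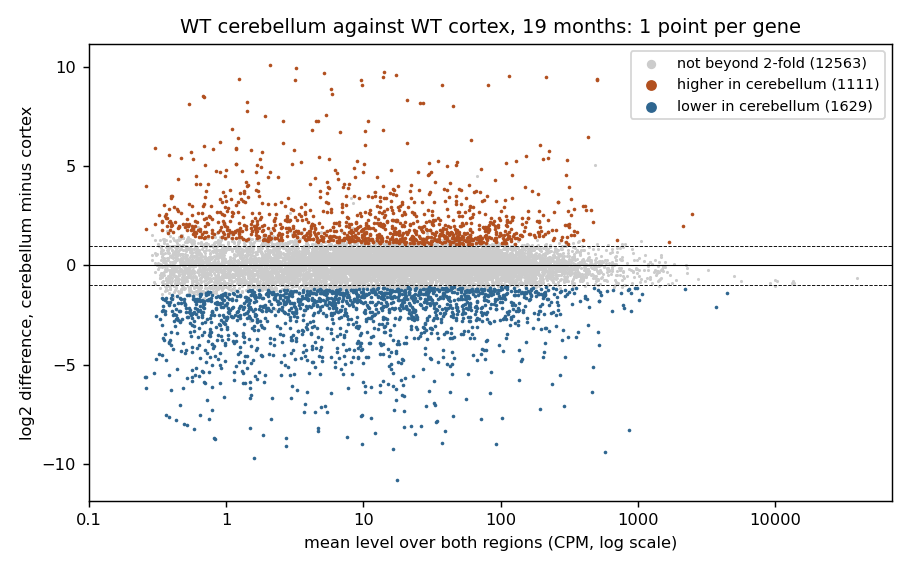
Log2 difference between cerebellum and cortex (y axis) against mean level over both regions in CPM (x axis, log scale), 1 point per tested gene, 10 WT animals of 19 months. The 1111 genes called more than 2-fold higher in cerebellum and the 1629 called lower are coloured, and dashed lines mark a 2-fold difference.

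The same animals chose these genes, so the agreement between them is a description. Of the 1111 genes higher in cerebellum, 1097 had the same sign in all 10 animals, and for 1042 the lowest cerebellum library lay above the highest cortex library. Of the 1629 lower genes, 1616 had the same sign in all 10 animals, and 1579 had no overlap between the regions. Over all 15303 tested genes, 8887 had the same sign in all 10 animals, 58.1%. The regions did not overlap for 3190 genes higher in cerebellum and 3535 lower, 43.9% of those tested together. The SD over animals was small beside such differences. For the 10622 genes with a mean of at least 5 CPM in both regions, the median SD of log2 CPM over animals was 0.12 in cerebellum and 0.13 in cortex. The median SD of the paired difference was 0.17, and the median absolute difference between regions 0.37.

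The 4 genes given by identifier are the first 2 in each direction by the p of the 2-fold test. They were taken among 691 higher and 930 lower genes with a mean of at least 10 CPM in the higher region and the same sign in every animal. ENSRNOG00000005609 had 395 CPM in its lowest cerebellum library, 442 at the median and 483 in the highest, against 7.61, 8.10 and 9.13 CPM in cortex. Every cerebellum lay far above every cortex, and the striatum was lower still, at 0.101 to 1.06 CPM. The log2 difference was 5.78 ± 0.05 (SE, n = 10 animals), or 54.9-fold, with an adjusted p of 4.65e-17 in edgeR's 2-fold test. By TPM, which corrects for length, this gene ranked 261 in cerebellum and 10034 in cortex.

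ENSRNOG00000005669 had 544 CPM in the lowest, 582 in the median and 668 in the highest cerebellum library, against 13.98, 15.2 and 16.8 CPM in cortex. Striatum held 9.97 to 15.2 CPM, so this gene was low in both forebrain regions, whose ranges overlapped. The log2 difference between cerebellum and cortex was 5.30 ± 0.05 (SE, n = 10 animals), or 39.4-fold, with an adjusted p of 2.00e-16 in edgeR's 2-fold test. It ranked 98 by TPM in cerebellum, so it was among the 100 most abundant transcripts there, and 6591 in cortex.

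ENSRNOG00000029165 had 8.58, 9.49 and 10.5 CPM in the lowest, median and highest cerebellum library, against 235, 272 and 292 CPM in cortex. The regions did not overlap, and striatum stood between them at 21.5 to 25.7 CPM, far nearer to cerebellum. The log2 difference was -4.79 ± 0.04 (SE, n = 10 animals), 27.8-fold lower in cerebellum, with an adjusted p of 4.65e-17 in edgeR's 2-fold test. ENSRNOG00000021663 behaved in the same way, with 13.0, 15.7 and 17.98 CPM in cerebellum against 361, 391 and 440 CPM in cortex. Its striatum levels, 33.9 to 52.8 CPM, lay above every cerebellum and far below every cortex. The log2 difference was -4.63 ± 0.04 (SE, n = 10 animals), 24.8-fold lower in cerebellum, with an adjusted p of 2.78e-16 in the same edgeR test. Both lower genes were thus high in cortex alone among the 3 regions, and they ranked 589 and 625 there by TPM.

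**Figure D2:**
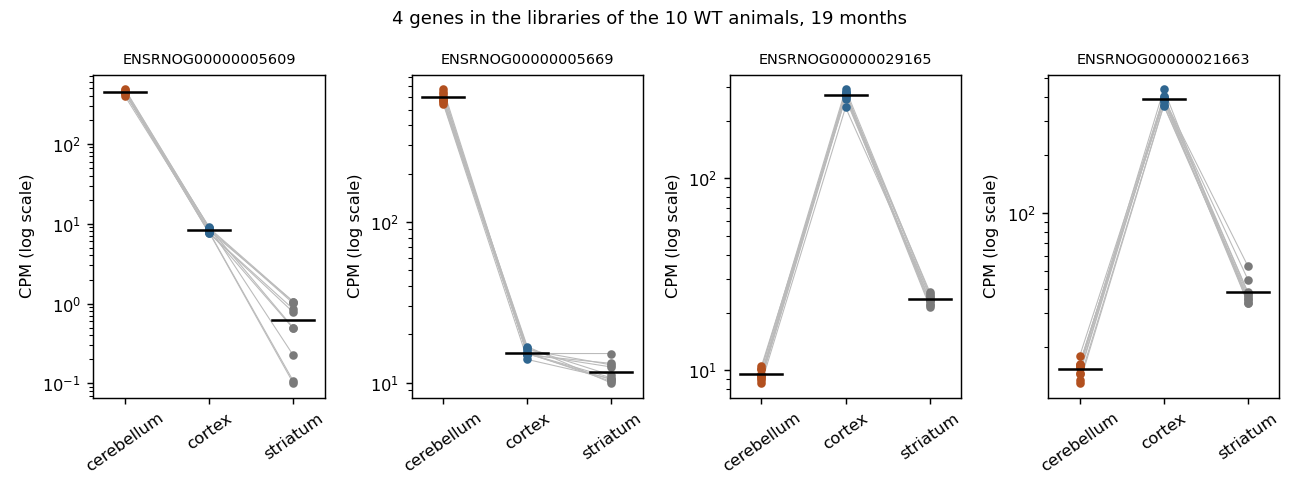
Levels of the 4 genes given by identifier, in CPM on a log axis, in cerebellum, cortex and striatum of the 10 WT animals of 19 months. Grey lines join the libraries of an animal and black bars are means; in each panel the 10 cerebellum and 10 cortex libraries do not overlap.

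Few genes were confined to one region at this depth. A gene was counted as restricted when it reached at least 1 CPM in all 10 libraries of one region and stayed under 0.1 CPM in all 10 of the other. By this rule 13 genes were restricted to cerebellum and 16 to cortex, against 12470 genes at 1 CPM or more in all 20 libraries. The cerebellum-restricted genes reached a mean of 28.2 CPM at most, with a median of 5.16 CPM. The cortex-restricted genes reached 35.1 CPM at most, with a median of 3.94 CPM. Each set held 2 genes with no count at all in the other region. The more abundant of these in the cerebellum set averaged 4.17 CPM, at least 498-fold higher in cerebellum when cortex is set to 3 counts over its 10 libraries. Its counterpart in the cortex set averaged 3.18 CPM in cortex, at least 322-fold lower in cerebellum by the same limit, which covers counting error only.

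Striatum and the other animals were then read for these genes. Of the 13 cerebellum-restricted genes, 6 were under 0.1 CPM in every striatum library and none reached 1 CPM in all of them. Of the 16 cortex-restricted genes, none was under 0.1 CPM in every striatum library and 6 reached 1 CPM in all of them. In the other animals, 12 of the 13 and 12 of the 16 met the same limits in WT rats of 24 months. In KI rats they were met by 7 of the 13 and 7 of the 16 at 19 months, and by 10 of the 13 and 12 of the 16 at 24 months. Every library must meet its limit, so the rule is harder to meet with more libraries. There were 20 in KI rats of 19 months, 14 in KI rats of 24 months and 8 in WT rats of 24 months. The genes were also chosen in the WT animals of 19 months, so these counts do not compare genotypes or ages. With looser limits of 0.5 and 0.2 CPM the sets grew to 42 and 93 genes.

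Striatum, the other forebrain region, was placed on a scale for each gene on which cortex is 0 and cerebellum is 1, using mean log2 levels. It lay nearer to cortex than to cerebellum for 876 of the 1111 genes higher in cerebellum, 78.8%, and for 1146 of the 1629 lower genes, 70.3%. The median position was 0.15 among the higher genes and 0.18 among the lower genes. All 10 striatum libraries lay below all 10 cerebellum libraries for 853 of the higher genes, and above all 10 for 13. For the lower genes, striatum lay above every cerebellum library for 1108 and below every one for 38. The positions spread widely around these medians. Among the lower genes 333 lay on the cerebellum side of the midpoint and a further 150 beyond cerebellum, so that for 483 genes, as for the 2 given by identifier, striatum lay nearer to cerebellum or past it. The cortex libraries set the zero of this scale and also chose the genes, so the positions are a description.

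**Figure D3:**
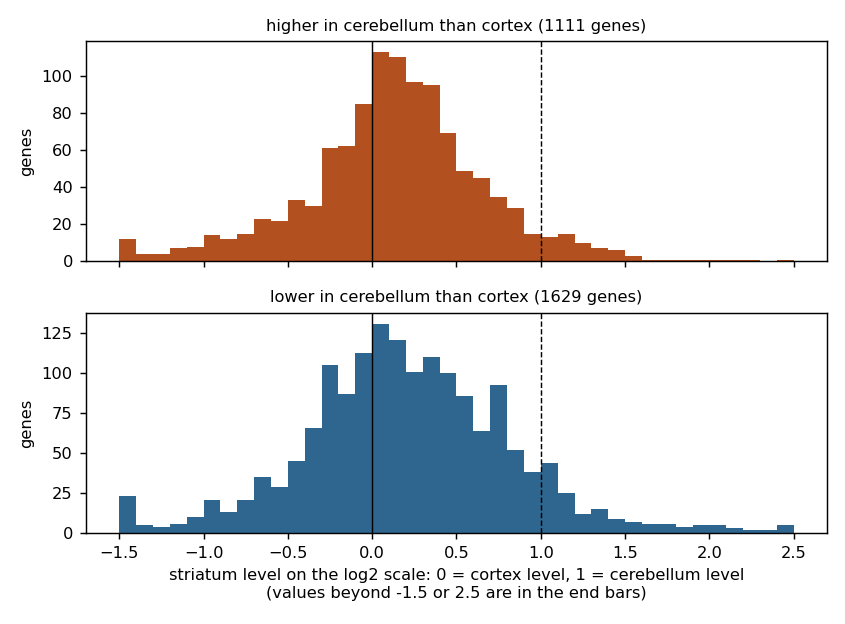
Position of the striatum mean on a log2 scale where 0 is the cortex level and 1 the cerebellum level (x axis), as counts of genes (y axis), for the 1111 genes higher in cerebellum (upper panel) and the 1629 lower genes (lower panel). Both distributions peak near the cortex level, and the lower genes have the longer shoulder towards cerebellum.

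The regions shared most of their abundant transcripts. By mean TPM, 18 of the top 20 genes, 79 of the top 100 and 783 of the top 1000 were the same in both. Of the cerebellum top 100, 4 genes were more than 2-fold higher in cerebellum and 3 lower. Of the cortex top 100, 1 was more than 2-fold higher in cerebellum and 13 lower. Over all tested genes the shares were 7.26% higher and 10.6% lower. Ranking by the level in a region itself favours genes that are higher in that region, so these counts are a description. Transcripts were less concentrated in cerebellum. The 10 most abundant genes of each library took 19.4% ± 1.17 of TPM in cerebellum and 27.7% ± 2.49 in cortex (SD, n = 10 each), and were lower in cerebellum in all 10 animals. The share in striatum was 30.9% ± 3.03 (SD, n = 10). For the 100 most abundant genes the shares were 33.7% ± 1.52 in cerebellum and 43.0% ± 2.49 in cortex (SD, n = 10 each), again lower in cerebellum in all 10 animals. Each of these differences had an exact paired permutation p of 0.00195 (two-sided), the smallest that 10 pairs can give, and 0.00195 after adjustment over 7 such measures.

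How much of the transcript pool the region-biased genes take was measured with lists from other animals, the 24-month WT rats. The 1043 genes called more than 2-fold higher in cerebellum there took 5.95% ± 0.327 of TPM in the 19-month cerebella, against 1.14% ± 0.0808 in cortex (SD, n = 10 each). The 1631 genes called lower there took 3.45% ± 0.0620 in cerebellum, against 10.1% ± 0.400 in cortex (SD, n = 10 each). In striatum these shares were 1.45% ± 0.102 and 8.95% ± 0.499, so that striatum was near cortex in both. All 10 animals showed each difference between cerebellum and cortex, with an exact paired permutation p of 0.00195 (two-sided), the smallest possible. The genes biased towards cerebellum thus took a smaller share there than the longer list biased towards cortex took in cortex. Both lists were called on the TMM scale. At 19 months, limma on the deposited TPM values called more genes higher than lower beyond 2-fold, 1609 against 1178.

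Slightly fewer genes were also detected in cerebellum. At 1 CPM or more on the TMM scale, cerebellum libraries held 13478 to 13663 genes and cortex libraries 13769 to 13910, so the groups did not overlap. The means were 13590 ± 75.5 in cerebellum and 13843 ± 43.3 in cortex (SD, n = 10 each), with an exact paired permutation p of 0.00195 (two-sided). Depth was higher in cortex in every animal. When each library was thinned to the 28710146 counts of the shallowest, cerebellum had 17830 to 18174 genes with a count and cortex 17921 to 18171. The means were close, at 17940 in cerebellum and 18038 in cortex. The ranges overlapped, and cerebellum was the higher of the pair in 2 of 10 animals, with an exact paired permutation p of 0.0117 (two-sided).

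Some genes had close levels in both regions. In all 10 animals, 650 genes, 4.25% of those tested, were within 0.25 of each other on the log2 scale, and 3527 genes, 23.0%, were within 0.5. A different spread between animals was rare among the 10622 genes with a mean of at least 5 CPM in both regions. The SD of log2 CPM was at least 3 times larger in cerebellum for 52 of them and in cortex for 45. Genes below that level in either region were not examined for this. Without animals D and G, over the 8 animals left, the counts among the same genes were 88 and 185. Whether this came from those libraries or from the smaller number of animals was not tested.

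The region differences recurred in the other animals. Of the 1111 genes higher in cerebellum at 19 months, 897 were called beyond 2-fold in the same direction in the 4 WT rats of 24 months. That is 80.7% of the 19-month list and 86.0% of the 1043 genes of the 24-month list. Of the 1629 lower genes, 1424 were called there too, 87.4% of the 19-month list and 87.3% of the 1631 genes of the other. None was called in the opposite direction, and all 1103 higher and 1618 lower genes tested there had the same sign. The background is 17.2% of 15503 genes called beyond 2-fold in the 24-month WT animals, 6.73% higher and 10.5% lower.

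In the 10 KI rats of 19 months, 2566 of 15372 genes were called beyond 2-fold, or 16.7%, 6.55% higher and 10.1% lower. These included 917 of the 1111 higher genes (82.5% of the WT list, 91.1% of the 1007 higher genes of the KI list) and 1451 of the 1629 lower genes (89.1% and 93.1% of 1559). In the 7 KI rats of 24 months, 2458 of 15346 genes were called, or 16%, with 6.38% higher and 9.64% lower, and they included 885 of the higher genes (79.7% of the WT list, 90.4% of 979) and 1394 of the lower genes (85.6% and 94.3% of 1479). Across genes, the log2 differences of the 19-month WT animals had a Pearson correlation of 0.974 with those of the 24-month WT animals (15229 genes). The value was 0.986 with the KI animals of 19 months (15231 genes) and 0.981 with those of 24 months (15175 genes). Genes are not independent replicates, so these values describe likeness only.

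**Figure D4:**
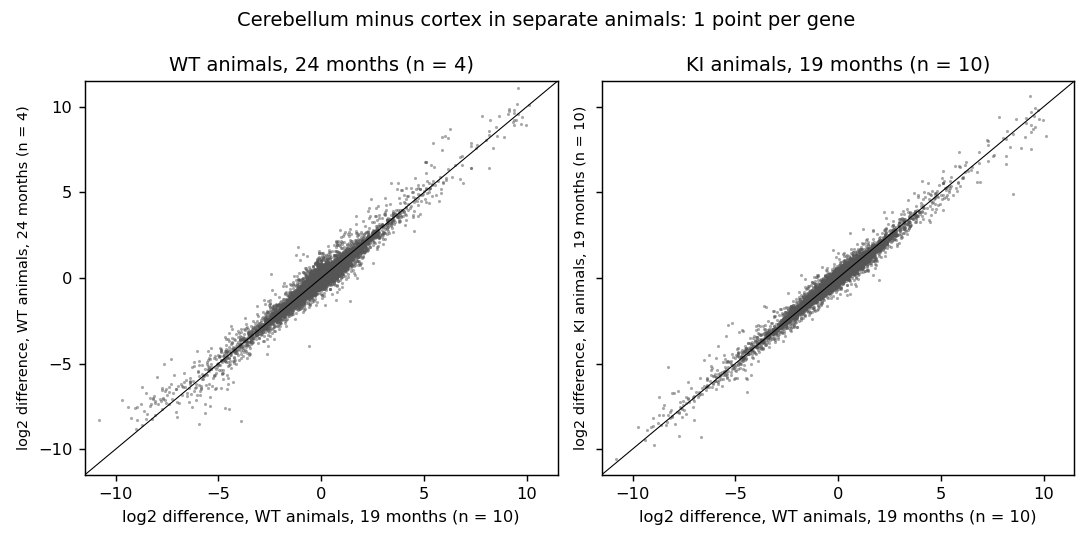
Log2 difference between cerebellum and cortex in the 10 WT animals of 19 months (x axis) against the same difference in 4 WT animals of 24 months (left) and 10 KI animals of 19 months (right), 1 point per gene. Points follow the line of equality, with Pearson correlations of 0.974 and 0.986 across genes.

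Whether the region difference itself changed with sex, age or genotype was tested as an interaction, with the animal as a block in edgeR. For sex, 0 of 15303 genes passed an adjusted p of 0.05, 0% of those tested, with 1070 genes under an unadjusted p of 0.05 and 0 called by DESeq2. For age, 24 against 19 months in WT rats, 0 of 16164 genes passed, also 0%, with 1841 under an unadjusted p of 0.05 and 70 called by DESeq2. Without animals D and G, edgeR called 21 by age and again 0 by sex. These counts do not show that the differences were equal. For genotype at 19 months, 51 of 15858 genes passed, 0.322%, of which 26 (0.164%) had a larger cerebellum-minus-cortex value in KI rats and 25 (0.158%) a smaller one. DESeq2 called 139 genes by genotype. Of the 51 genes, 13 belonged to the genes more than 2-fold higher in cerebellum in the 24-month WT rats, and 12 of those 13 had a smaller region difference in KI rats than in WT rats. That list made up 6.57% of the genes tested for genotype, and 65.4% of it had a smaller difference in KI rats. A further 12 belonged to the genes lower there, and the difference was smaller in KI rats for 11 of the 12. The lower list made up 10.3% of the genes tested, and the difference was smaller in KI rats for 53.9% of it. Nothing particular to the called genes was tested here.

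ENSRNOG00000005609, the first of the genes higher in cerebellum, was among the 51. Its cerebellum level was 246 CPM at the lowest, 288 at the median and 316 at the highest in KI rats of 19 months, against 395, 442 and 483 CPM in WT rats. The cerebella of the 2 genotypes did not overlap, whereas the ranges in cortex did, with 7.48 to 9.06 CPM in KI and 7.61 to 9.13 CPM in WT rats. The genotype-by-region term was -0.69 ± 0.06 (log2, SE), with an adjusted p of 9.87e-07 in edgeR. The gene was picked for its difference in the WT animals of 19 months. In the other animals its cerebellum held 259 to 312 CPM in KI rats of 24 months, against 407 to 501 CPM in WT rats of 24 months. For the other 3 identifiers the term had adjusted p-values of 0.873 to 0.996 in the same edgeR fit.

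The sexes differed at few genes in either region. Between males and females, edgeR called 13 of 15101 genes in cerebellum, 0.0861%, and 11 of 15321 in cortex, 0.0718%. DESeq2 called 60 in cerebellum and 22 in cortex. The 2 lists shared 10 genes, which is 10 of the 13 and 10 of the 11, all with the same sign. Of the 10, 5 were higher in males, with male means of 7.68 to 92.2 CPM in cerebellum and 5.07 to 82.7 CPM in cortex, while no female mean exceeded 0.143 CPM. For each of these 5 genes, every library labelled male lay above every library labelled female in both regions. The same labels chose these genes, and none could be matched to a symbol, so this is no independent check of the labels.

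The other 5 shared genes were higher in females. The most female-biased gene had 0.350 CPM in male and 131 ± 4.17 CPM in female cerebella, against 0.259 CPM in male and 53.8 ± 14.9 CPM in female cortices (SD, n = 5 each). The next had 0.151 CPM in male and 31.2 ± 3.08 CPM in female cerebella, against 0.217 CPM in male and 8.03 ± 4.72 CPM in female cortices (SD, n = 5 each). Female cerebellum was thus above female cortex for both, with no overlap, at 126 to 137 against 33.7 to 67.7 CPM for the first and 27.98 to 36.0 against 2.53 to 13.2 CPM for the second. The 2-fold test between regions over both sexes gave adjusted p-values of 0.138 and 0.0401 in edgeR, and the sex-by-region terms 0.650 and 0.640. Another female-biased gene was lower in cerebellum, with 4.67 ± 0.275 CPM in male and 8.22 ± 1.33 CPM in female cerebella, against 10.8 ± 2.12 CPM in male and 24.7 ± 3.8 CPM in female cortices (SD, n = 5 each). Its log2 difference between regions was -1.36, with an adjusted p of 0.00251 in the 2-fold test of edgeR.

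Some genes followed the animal in both regions. Outside the genes called by sex, 87 genes had an SD of at least 1 log2 unit between animals in both regions, and for 11 of these the 10 animals' levels in cerebellum and cortex correlated at 0.9 or more. For 10 of the 11, cerebellum and striatum correlated at 0.9 or more as well. These genes were picked for this pattern after their values were seen, so it is given without a test. One had 54.0 to 128 CPM in the cerebella of 9 animals and 0.274 CPM in that of animal E. In cortex the same 9 animals had 65.9 to 193 CPM and E had 1.495 CPM. Another was low in animal A alone, at 6.81 CPM in cerebellum against 103 to 200 CPM in the other 9 animals, and at 2.74 against 124 to 253 CPM in cortex.

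In the same set, 3 genes were low in the same 3 animals, E, F and G, in both regions. The most abundant of them had 0.108 to 0.152 CPM in those cerebella and 7.001 to 21.2 CPM in the other 7. A further gene was high in animals A, B and J only, with 4.395 to 10.0 CPM against 0.152 to 0.341 CPM in the other cerebella, and with 14.4 to 26.7 against 0.333 to 1.14 CPM in cortex. Of the 11 genes, 3 were also called beyond 2-fold between the regions, against 17.9% of all tested genes.

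Another group of genes varied strongly between cerebella. Of the 1393 genes with an absolute log2 difference above 2, 11 were not called beyond 2-fold, and the most abundant of these 11 was taken as a guide. It exceeded 500 CPM in 6 cerebella and stayed under 100 CPM in the other 4, with 7.15 CPM at the lowest, 702 at the median and 2332 at the highest. In cortex it had 1.07, 10.5 and 428 CPM, and in striatum 3.74, 19.9 and 138 CPM. The highest cortex belonged to animal A, whose cerebellum was among the 4 low ones. It was higher in cerebellum than in cortex in 7 of 10 animals, with a log2 difference of 5.07 ± 1.88 (SE), an adjusted p of 0.0298 and an adjusted p of 0.138 in edgeR's 2-fold test.

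Among 221 genes with an SD of at least 1 log2 unit in cerebellum, 31 others correlated with this gene at 0.9 or more over the 10 cerebella. Together with it they summed to 99.4 CPM in the lowest and 3130 CPM in the highest library. In the 10 KI cerebella of 19 months, which had no part in choosing them, 28 of the 31 again correlated with it at 0.9 or more, with a median of 0.966. Over the 10 WT animals of 19 months, the levels of the 31 genes in cerebellum and in cortex correlated at -0.619 to 0.388, with a median of -0.307. The guide gene ranged in the KI cerebella of 19 months from 16.9 to 2037 CPM. In the 24-month animals it held 3.41 to 1684 CPM in KI cerebella and 863 to 1653 CPM in WT cerebella. Of the 31 genes, 21 passed an adjusted p of 0.05 between cerebellum and cortex in edgeR and 4 were called more than 2-fold higher in cerebellum. The shares over all tested genes were 78.6% and 7.26%. Which cells express these genes was not tested, since their identifiers carry no names here.

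**Figure D5:**
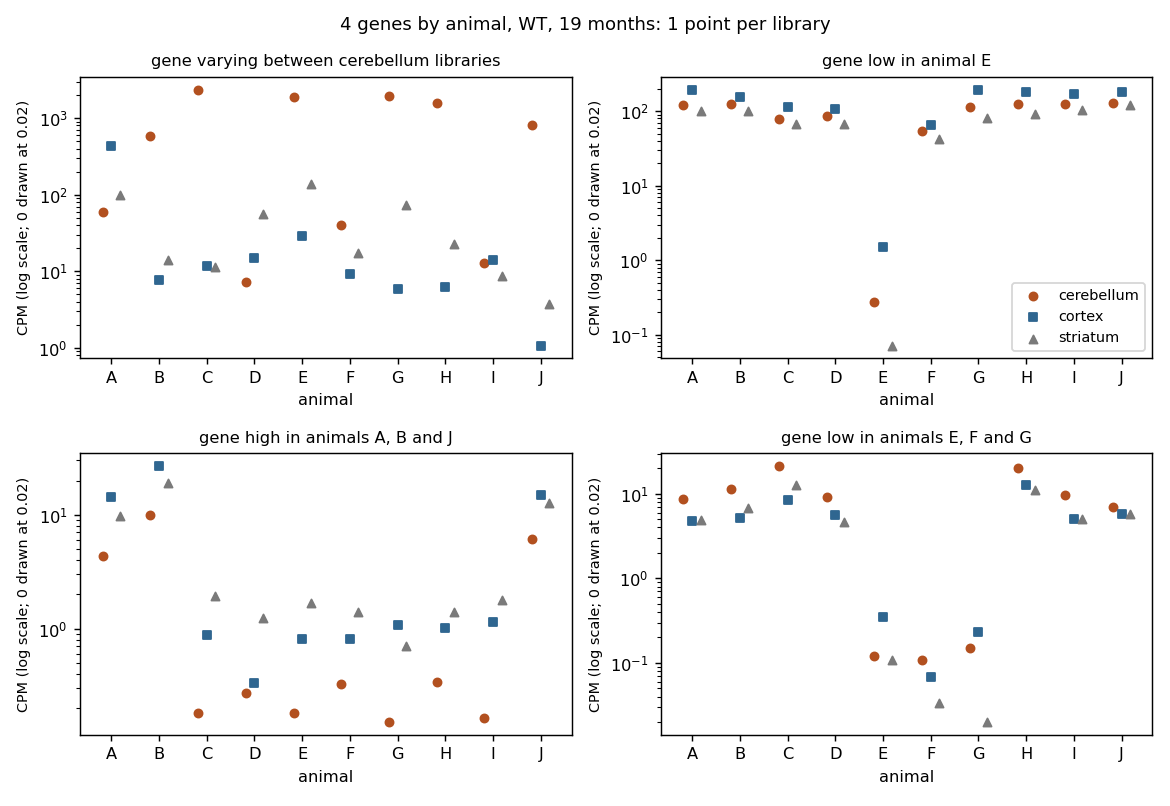
Levels of 4 genes in CPM (log axis; zeros drawn at 0.02) for each of the 10 WT animals of 19 months, 1 point per library in cerebellum, cortex and striatum. The guide gene of the varying group (upper left) runs from 7.15 to 2332 CPM between cerebella and has its highest cortex in animal A, whereas the other 3 genes are low or high in all 3 regions of the same animals.

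Genes also differed in the length that the authors' processing assigned to them. The ratio of estimated count to TPM in a library was read as proportional to the length used for that gene. This ratio can differ between libraries where a gene's transcripts are weighted by their abundance. Of 11906 genes with at least 50 counts in all 20 libraries, the ratio varied between the other 125 libraries of the series for 2194, or 18.4%. Among these 2194, limma with the animal as a block called 570 at an adjusted p of 0.05, which is 26%, 260 (11.9%) longer in cerebellum and 310 (14.1%) shorter. There were 859 under an unadjusted p of 0.05. The differences were mostly small, with a median size of 0.05 on the log2 scale among called genes, and 80 exceeded 1.1-fold, 45 longer and 35 shorter. Of these 80, 78 had the same sign in WT animals of 24 months and all 80 in KI animals of 19 months.

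The most shortened gene had 0.356 to 0.412 of the median gene's length in cerebellum, against 0.636 to 0.865 in cortex. Its log2 difference in length was -1.0 ± 0.06 (SE, n = 10 animals), with an adjusted p of 5.14e-07 in limma, and its level was 1.05 higher in cerebellum on the log2 scale. The most lengthened gene had 3.33 to 5.23 median lengths in cerebellum against 1.33 to 3.23 in cortex, a log2 difference of 0.93 ± 0.15 (SE, n = 10 animals) with an adjusted p of 0.00126 in limma. Neither gene's ranges overlapped between the regions. In WT animals of 24 months and KI animals of 19 months, the log2 length difference of the most lengthened gene was smaller, 0.395 and 0.651. That of the most shortened gene was -0.893 and -0.978. In all, 96 of the 570 genes were beyond 2-fold in level, against 13.8% of all varying genes, and another 96 did not pass an adjusted p of 0.05 in level, against 17.4% of the varying genes. No file gives transcript weights, so no transcripts can be named here. Whether these differences come from transcript weights was not tested.

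Among the 11910 genes with at least 50 rounded counts in all 20 libraries, longer genes were somewhat more often region-biased. That limit leaves out genes that are low or absent in either region, among them many of those called beyond 2-fold. Among the 2978 shortest of these genes, 2.38% were more than 2-fold higher in cerebellum and 5.14% lower. Among the 2978 longest the shares were 9.30% and 8.66%. The Spearman correlation across genes between length and the log2 difference was 0.124 in these animals. It was 0.0224 in WT animals of 24 months, 0.0733 in KI animals of 19 months and 0.128 in KI animals of 24 months, so it was weak throughout. Single libraries differed in how their levels leaned with length, with correlations of -0.392 in the cerebellum of animal G and -0.490 in the cortex of D at one end, and 0.316 in cerebellum and 0.416 in cortex at the other. Its part in the region differences was not tested.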

How the data were processed

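Libraries were grouped from the submitters' labels and paired by the animal identifier in the sample descriptions; replicate numbers are the same in both regions for only 4 of the 10 animals. The labels' protocols name flash-frozen tissue and total RNA, of which enriched fractions went into Illumina libraries. The deposited count table holds estimated counts, with 8.12% of values not whole, which were rounded; the design had assumed whole counts. The authors call the other table FPKM, but its deposited values add up to 1000000 in each library and were used as TPM. File headers give Rat.B6.0 as the reference; which aligner and counter were run is not given in the sources used here. The comparison, its gene lists and tests were chosen with earlier results of these data known. The fixed gene lists and cell type markers are by symbol and were not tested, since none of the 32883 identifiers could be matched to a symbol.

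Genes were tested with edgeR 4.0.16 in R 4.3.3 (TMM, filterByExpr, robust quasi-likelihood F test) with the animal as a block, and with its glmTreat for an absolute log2 difference above 1. P-values were adjusted by Benjamini-Hochberg over all genes tested and called under 0.05. The animals are separate. With the animal as a block, p-values measure how the difference between regions within an animal spreads over animals. In the sex tests within a region they measure the spread of levels between animals. CPM levels use TMM factors over the 93 WT and KI libraries of 19 and 24 months. DESeq2 1.42.0 and limma 3.58.1 served as alternatives. The main comparison, the sex-by-region term and the length test were also run on simulated data. The fixed rule for named genes needs symbols; without them, the first 2 genes per direction by p of the 2-fold test, with at least 10 CPM and 1 sign in all animals, are printed. The lengths, the genes that vary between animals and the runs without animals D and G were added after the data were seen. Deviations from the region means, compared between the 2 libraries of an animal, correlated at -0.357 to 0.427 (median 0.0344) over genes; the pairing comes from the identifiers.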

Additional observations from a re-analysis of the deposited data

Results flagged for a closer look

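Of 73 groups of 4 to 10 libraries examined, 8 held a library far from the others. At its nominal rate, chance flags about 1 in 20 groups. The groups share libraries and are not independent, so the count of flags cannot be set against that rate. The cerebellum of animal G had the lowest mean correlation with the other cerebella, 0.982, against 0.990 for the next. Its 10 most abundant genes took 22.1% of TPM and its 100 most abundant 37.6%, against 20.05% and 34.4% in the next highest library. The cortex of animal D had the lowest mean correlation in its region, 0.986, against 0.991 for the next.

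The other 4 concern the genes given by identifier. ENSRNOG00000005609 had 5.57 CPM in the cortex of 1 WT rat of 24 months, against 8.58 CPM in the next. ENSRNOG00000029165 had 50.3 CPM in the striatum of 1 KI animal of 19 months, against 31.7 CPM in the next library. ENSRNOG00000021663 had 83.4 CPM in the same striatum, against 54.2 CPM in the next, and 473.5 CPM in the cortex of another KI animal, against 425.8 CPM in the next.

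Region differences that themselves differed between genotypes were found for 51 genes. Among them was ENSRNOG00000005609, with a genotype-by-region term of -0.69 on the log2 scale, KI minus WT.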

How the results depend on the processing

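With each animal left out in turn, 11743 to 12142 genes were called between the regions and 2679 to 2786 beyond 2-fold. With no replicate block 12058 and 2746 genes were called, and with the replicate number as a block 11995 and 2724, so these counts moved by less than 1.5 times. Genes called by length were 642 with no replicate block, against 570, and the other comparisons were not run without the animal block. The 4 identifiers stayed beyond 2-fold in all 26 settings run. Sex called 10 to 19 genes in cerebellum and 10 to 14 in cortex when an animal was left out, and 2531 to 2633 genes were called beyond 2-fold in WT rats of 24 months. Among counts that moved by over 1.5 times were those of DESeq2 for age by region (70, against 0), genotype by region (139, against 51), sex in cerebellum (60, against 13) and sex in cortex (22, against 11). Age by region also moved to 21 without animals D and G, and the restricted genes to 42 and 93 with limits of 0.5 and 0.2 CPM. On uncentred TPM, 9524 to 9711 genes were called higher, against 6131, and with a pseudocount of 1 only 799 were lower beyond 2-fold with the filter and 781 without it, against 1629. The cause was not tested for any of these. Of the genes called beyond 2-fold, 40.5% were higher in cerebellum with TMM and 38.2% to 41% with the other count scalings, filters and fits, against 57.2% to 58.3% on uncentred TPM and 34.1% on centred TPM. Gene list counts were not run, since no symbol matched. Depth limits what can be said of genes near 1 CPM or below.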
